A study of Mus musculus with 4 samples.

Results

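The complement system was examined in mouse synovium through a list of 34 genes for its components, regulators and receptors. Of these, 31 were measured, among 22180 genes in all, as genes with a probe set assigned to them alone. C3, Cfd and Masp2 are not analysed here. Symbols of all 31 matched the RefSeq gene table by gene number.

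Complement is a protease cascade of innate immunity. The classical pathway starts when C1q binds antibody, the lectin pathway when collectins or ficolins bind sugars, and the alternative pathway runs on factor B and properdin. All of them meet at C3, go on to C5, and end in a pore built from the terminal components, while membrane and fluid-phase regulators hold the cascade in check on host cells. In joints, complement is known as a link between immune complexes and inflammation, and earlier genetic work in mice tied serum transfer arthritis to factor B, C5 and the receptor C5ar1.

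The data are 4 arrays, 1 for each pool of synovium, dissected at the ankle (tibiotalar joint). All mice were C57BL/6J males 12 weeks old and had injections into the abdomen on day 0, day 2 and day 7, of 150 microlitres each. In the 2 arthritic pools, of 10 mice each and labelled day 10 (peak inflammation), the injections held serum that transfers arthritis. In the 2 nonarthritic pools, of 3 mice each and labelled day 0, they held phosphate buffered saline. A label of day 0 does not settle when the tissue of these mice was taken. The labels name K/BxN as the serum's source strain for every pool, although the protocol gives saline to nonarthritic mice. Pool size and labelled day therefore differ between the groups and cannot be told apart from arthritis. The design text calls the pools biological replicates, so p-values refer to pools and not to mice.

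Values were read as log2 signals (the base was inferred from their range), a scale on which a difference of 1 is a doubling, and they can be compared between arrays for 1 gene but not between genes. Each gene's values are given below in the order nonarthritic pool 1, nonarthritic pool 2, arthritic pool 1, arthritic pool 2. Fold changes are arthritic over nonarthritic, with the standard error (SE) or 95% confidence interval from limma. Limma draws each gene's variance toward a value shared by all genes. Its SE, interval and p-value therefore do not show the gene's own spread between pools alone. A gene is said to rise or fall where its Benjamini-Hochberg adjusted p over all genes was under 0.05. Array medians ran from 6.96 to 7.15. The 95th percentile of olfactory receptor genes, which synovium is not known to use, was 7.08 in the nonarthritic and 6.83 in the arthritic group and served as a reference for dim signals. The number of arrays limits the precision, and an exact permutation test of 2 pools against 2 cannot give a p below 0.333.

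Of the 31 members 6 rose, 7 fell and 18 did not pass. The shares were 19.4% higher and 22.6% lower, beside 8.72% higher and 6.62% lower over all genes tested. The members were chosen with earlier results of these data known, so these shares are a description and not a test. Over all 22180 genes, 7629 were dim in both groups, as were 7 of the members. Masp1, Cfi, Cfp, C5ar2, Cfb and C1qa rose, and C7, Cd55, Clu, Cd59a, Cd46, C4b and Fcna fell. The median log2 fold change of the members was -0.05, against 0.01 over all genes. In 23 members (74.2%) the pools of the groups did not overlap, as in 56.4% of all genes.

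**Figure D1:**
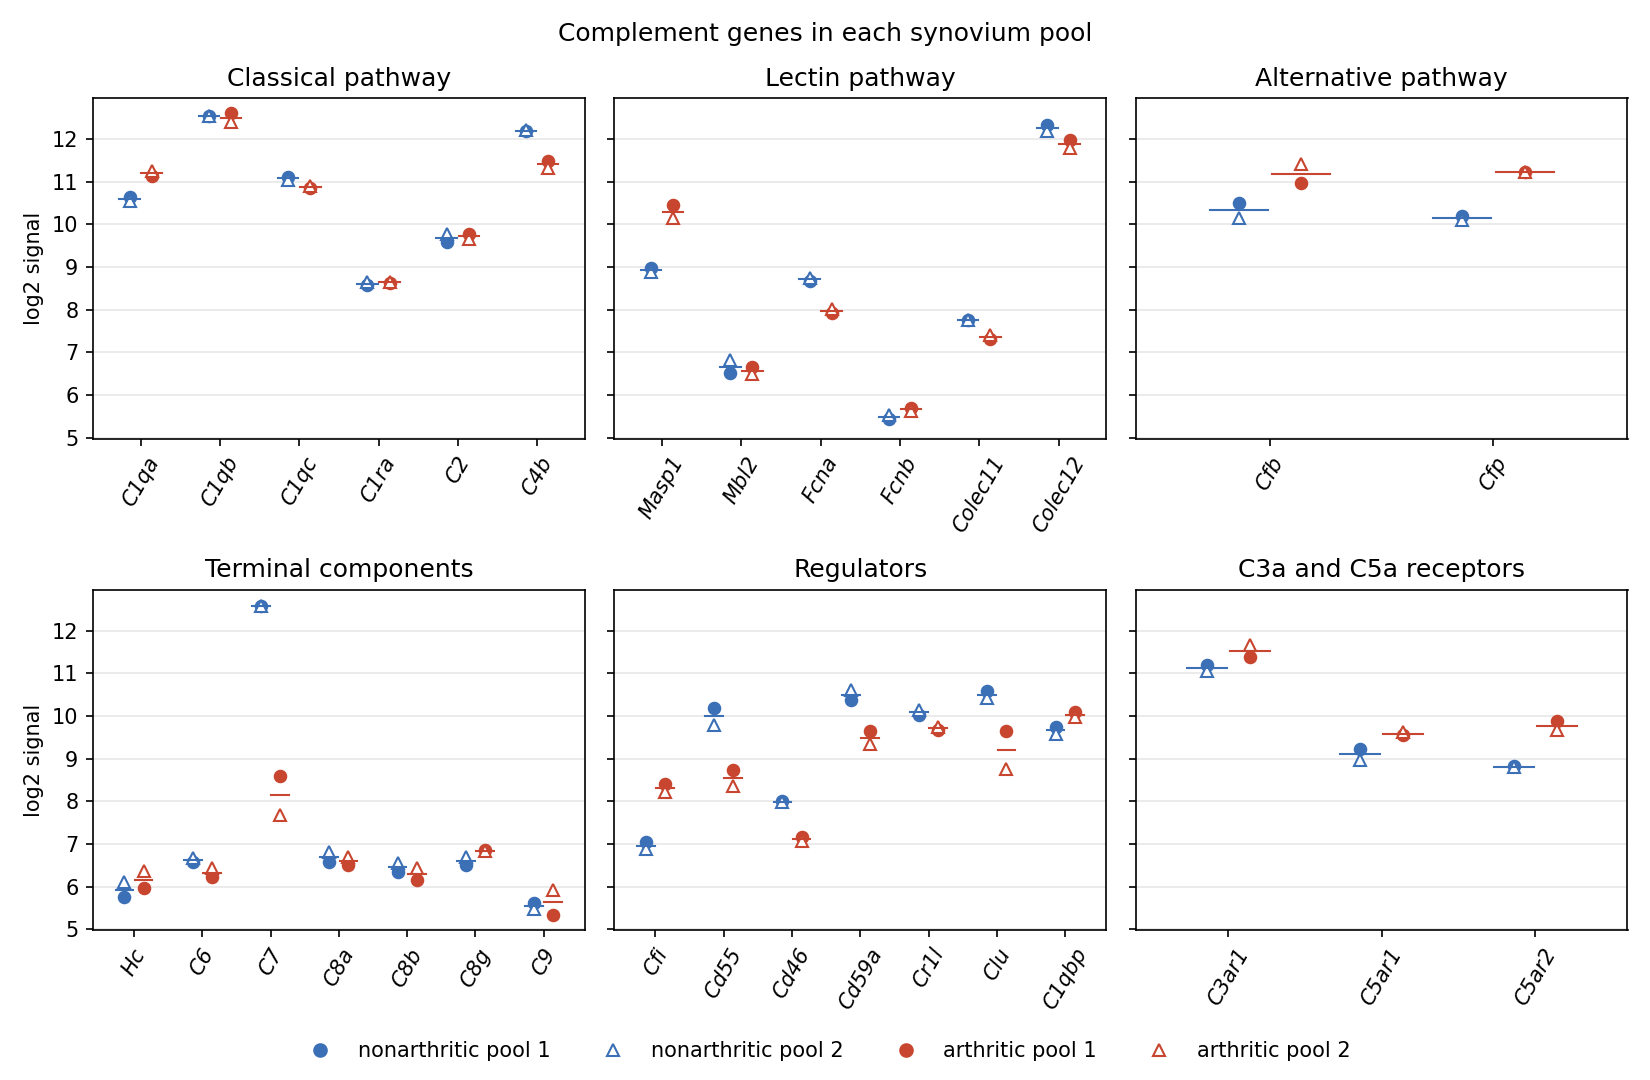
Log2 signal (y axis) of each measured complement gene (x axis) in every pool, by pathway arm; points are pools and short lines are group means over 2 pools. Levels of different genes are not comparable. C7 drops from 12.57 and 12.59 in the nonarthritic pools to 8.60 and 7.68 in the arthritic pools, the widest gap of the members shown.

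These calls rest on all 4 arrays. Without nonarthritic pool 1, 3 members rose (Masp1, Cfi and Cfp) and 1 fell. Without nonarthritic pool 2, 0 rose and 1 fell. Leaving out arthritic pool 1 left 0 rising and 2 falling members, C7 and Clu, and leaving out arthritic pool 2 left 0 and 1. Over all genes these fits called 637, 144, 232 and 47 genes higher, from 1933 with every array. C7 fell in each of these 4 fits. The direction of all 13 called members stayed the same in each, and their log2 fold changes moved by at most 0.46. For Cfb they ran from 0.63 to 1.09 and for Cd55 from -1.64 to -1.25. C1qa, C4b, Fcna, Cfb, Cd55, Cd46, Cd59a and C5ar2 passed in none of the 4.

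**Figure D2:**
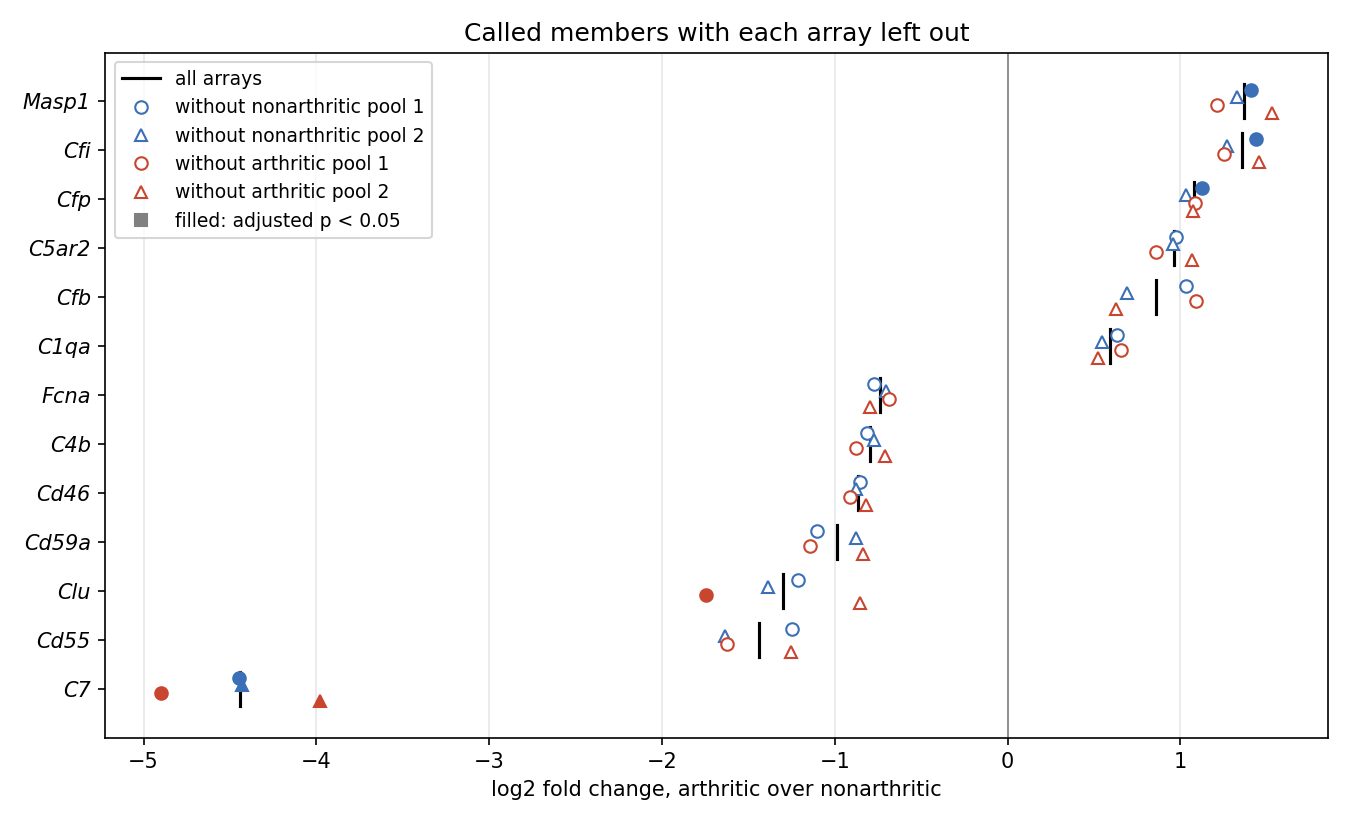
Log2 fold change (x axis) of the 13 members that rose or fell (y axis), with all arrays (black line) and with each array left out (points; filled where adjusted p was under 0.05). C7 stays between -4.90 and -3.98 and is filled in all 4 fits, while Clu ranges from -1.75 to -0.86 and is filled only without arthritic pool 1.

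In the bulk samples, fewer cells of a type and less RNA per cell cannot be told apart. Several marker lists of cell types moved with the groups, and others did not. All 9 neutrophil markers rose (summed linear signal 1467 to 2004 in the nonarthritic and 13551 to 15729 in the arthritic pools). All 6 adipocyte markers fell, from sums of 20387 to 20511 to sums of 3905 to 6017, and so did all 7 skeletal muscle markers, from 23101 to 31592 down to 2683 to 4178. Of 7 resident macrophage markers 5 fell (24782 to 24874 against 7669 to 9154), while 4 of 8 general macrophage markers rose (17030 to 19178 against 24589 to 25791). Of 10 synovial fibroblast markers 4 rose and 2 fell, with sums of 57030 to 61347 and 55737 to 56082. Lubricin (Prg4), known from the lining of the joint, read 13.66, 13.66, 13.27 and 13.52 and did not pass. The 2 fibroblast markers that fell were Clic5 (-2.48) and Htra4 (-1.885, log2 fold changes). The 4 that rose were Pdpn, Thy1, Cdh11 and Col1a1. None of the 7 neutrophil precursor markers passed, and 5 of them were dim in both groups. Of 5 endothelial markers 1 rose and 0 fell, with overlapping sums of 10095 to 10154 and 10132 to 12278. None of the 3 T cell markers passed.

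**Figure D3:**
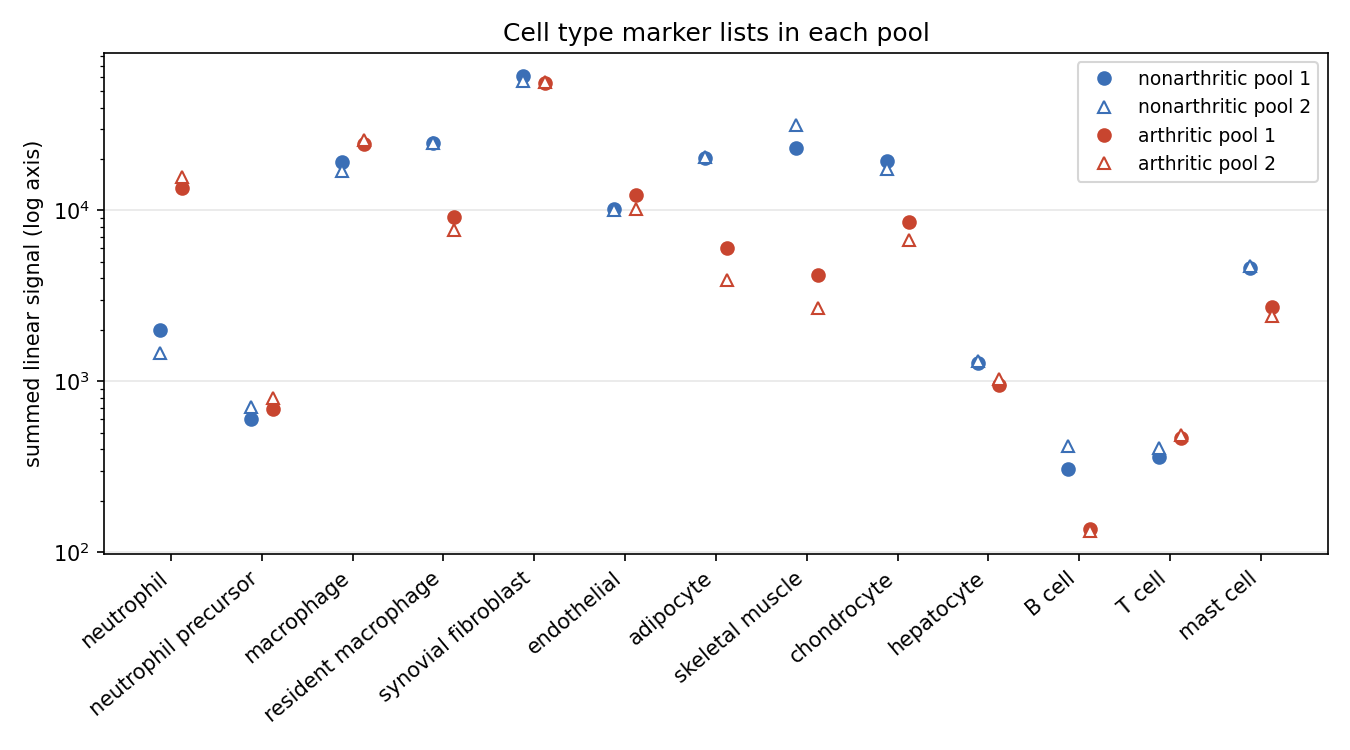
Summed linear signal (y axis, log scale) of each cell type marker list (x axis) in the 4 pools. Neutrophil markers sum to 1467 and 2004 in the nonarthritic and to 13551 and 15729 in the arthritic pools, and adipocyte, skeletal muscle and resident macrophage sums are lower in both arthritic pools.

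The terminal components assemble the membrane attack complex, and of the 7 measured 0 rose and 1 fell (median log2 fold change -0.10). These shares are 0% higher and 14.3% lower, beside 8.72% and 6.62% over all genes. The one that fell was C7, which joins C5b and C6 and lets the growing complex insert into a membrane. C7 read 12.57, 12.59, 8.60 and 7.68. The nonarthritic pools were nearly equal, and both arthritic pools lay far below them, with arthritic pool 2 lower than pool 1 by 0.92. The fall was 21.7-fold (log2 fold change -4.44 ± 0.28 SE, 95% interval -5.08 to -3.80, limma adjusted p = 0.000136). The summed adipocyte, skeletal muscle, resident macrophage, chondrocyte, mast cell and B cell signals were also lower in both arthritic pools. Each of these sums was lowest in arthritic pool 2. Synovial fibroblast and hepatocyte sums were lower in both arthritic pools too, but lowest in arthritic pool 1 (55737 against 56082, and 950 against 1028). Both measured B cell markers fell, with sums of 308 to 419 in the nonarthritic and 133 to 137 in the arthritic pools. Neither B cell marker was above the olfactory receptor reference in the arthritic group. Of 5 chondrocyte markers 3 rose (Acan 2.025, Matn3 2.305 and Col2a1 0.86) and 2 fell (Chad -3.62 and Cytl1 -3.51, log2 fold changes). The chondrocyte sums were 17486 to 19480 in the nonarthritic and 6682 to 8497 in the arthritic pools. Chad and Cytl1 had the highest nonarthritic signals of these markers, so they weigh most in the sums. For the mast cell list, of which 2 of 3 fell, the sums were 4631 to 4725 and 2407 to 2704. The part of these cell type lists in the C7 result was not tested.

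The other terminal members were Hc, the mouse gene for C5, and C6, C8a, C8b, C8g and C9, which encode the remaining parts of the pore. None of these 6 passed, with log2 fold changes between -0.30 and 0.24. Hc, C6, C8a, C8b and C9 were not above the olfactory receptor reference in either group, and C8g (6.52, 6.70, 6.86 and 6.84) was just above it in the arthritic pools. For Hc the values were 5.75, 6.12, 5.98 and 6.36, and for C6 they were 6.59, 6.67, 6.23 and 6.43. A low signal cannot be told from background here, so their intervals (for C6 -0.67 to 0.07) limit only the signal. Of the 7 members that were dim in both groups, 6 read higher in nonarthritic pool 2 than in pool 1, as the olfactory receptor medians did (5.15 against 4.68). The liver is the main known source of plasma complement. Of 9 hepatocyte markers 0 rose and 2 fell, Alb and Ahsg, with Alb at 8.50, 8.29, 6.49 and 6.65, and 4 of the 9 were dim in both groups.

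In the RefSeq gene order of assembly GRCm38.p6, C6 and C7 lie close together on chromosome 15, with 1 coding gene between them. The sequences just before their starts are shown because the signal of one fell and that of the other did not pass. The RefSeq promoter sequences used here cover 23 of the 31 members, with 25 sequences in all. C1qa, C2, C4b, Masp1, Colec12, Cfb, Cfi and Clu have none among them. In the 250 bases before each start, letters of 4 motifs were searched on both strands. These were TTCNNNGAA (STAT), TTGCNNAA (C/EBP), GAAA and GAAA with any 2 bases between them (interferon-stimulated response element), and GGG and TTTCC with any 2 bases between them (NF-kB). The capitals in the sequences mark matches, and both sequences below are from RefSeq, build GRCm38.p6, written 5′ to 3′ in the direction of the gene. C7 is at chr15:5063774-5064023 on the minus strand, and C6 is at chr15:4726960-4727209 on the plus strand.
C7: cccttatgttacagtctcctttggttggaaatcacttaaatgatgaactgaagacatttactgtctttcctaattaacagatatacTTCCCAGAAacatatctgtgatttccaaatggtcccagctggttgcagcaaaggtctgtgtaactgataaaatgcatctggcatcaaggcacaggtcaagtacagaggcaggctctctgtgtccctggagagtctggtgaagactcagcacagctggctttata
C6: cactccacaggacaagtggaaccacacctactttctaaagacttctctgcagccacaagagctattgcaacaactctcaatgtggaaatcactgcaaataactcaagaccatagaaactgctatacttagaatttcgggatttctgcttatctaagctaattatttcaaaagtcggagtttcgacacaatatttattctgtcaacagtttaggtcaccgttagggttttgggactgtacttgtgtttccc

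The C7 stretch holds 1 STAT match, 164 to 156 bases before the start, and that of C6 holds none of the 4 motifs. STAT letters stood in 7.02% of all 32851 promoters of this length and in 3 of the 25 member promoters (C7, C8a and Colec11). C/EBP letters stood in 9.56% of all promoters and in 3 of the members' (C5ar2, C9 and Fcnb). The interferon-stimulated element was in 2.98% of all and in 2 member promoters (Cd59a and Colec11), and NF-kB letters were in 1.41% of all and in 1 (C3ar1). A match is a run of letters and not a measured binding site.

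Of the 7 measured regulators 4 fell and 1 rose (57.1% and 14.3%, beside 6.62% and 8.72% over all genes), with a median log2 fold change of -0.87. Those that fell were the membrane regulators Cd55, Cd46 and Cd59a and the secreted clusterin gene Clu, and the one that rose was the protease gene Cfi. In all 7 regulators the pools of the groups did not overlap, as in 56.4% of all genes.

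Cd55, or decay-accelerating factor, takes apart the convertases on a cell's own surface, and lining fibroblasts of the joint are known to carry it. It read 10.19, 9.80, 8.74 and 8.37, so both arthritic pools were lower, and pool 1 was higher than pool 2 in each group. Cd55 fell 2.71-fold (log2 fold change -1.44 ± 0.20 SE, limma adjusted p = 0.00304). Among the fibroblast markers, Clic5 and Htra4 also fell, with log2 fold changes of -2.48 and -1.89 (values 12.30, 12.20, 10.22 and 9.32 for Clic5), while Pdpn and Cdh11 rose by 1.19 and 1.70 on the same scale. Their part in the Cd55 result was not tested.

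Cd59a, the gene of a surface protein that stops C9 from joining the pore, read 10.37, 10.60, 9.65 and 9.34. Both arthritic pools lay below both nonarthritic pools. Cd59a fell 1.99-fold (log2 fold change -0.99 ± 0.18 SE, limma adjusted p = 0.00931). Cd59b, its neighbouring near-copy, read 7.12, 7.09, 7.38 and 7.25 and did not pass (log2 fold change 0.21, 95% interval -0.15 to 0.57, limma adjusted p = 0.435). The copies can share probes, so their values are uncertain for that reason, and the difference between them was not tested.

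Cd46, a cofactor for cleaving C3b and C4b that in mice is best known from testis, read 8.0, 7.98, 7.17 and 7.08. Pools within a group were within 0.09 of each other, and the groups stood apart. The gene fell 1.82-fold (log2 fold change -0.87 ± 0.15 SE, limma adjusted p = 0.00846). Cr1l, which encodes Crry, the main membrane regulator of mouse cells, lies next to Cd46 on chromosome 1. Its values of 10.03, 10.15, 9.68 and 9.75 did not pass (log2 fold change -0.38, 95% interval -0.74 to -0.01, limma adjusted p = 0.157).

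Clu encodes clusterin, a secreted chaperone that binds the forming pore. Clu read 10.59, 10.42, 9.65 and 8.76, and the arthritic pools stood 0.89 apart. It fell 2.46-fold (log2 fold change -1.30 ± 0.27 SE, limma adjusted p = 0.0165). The log2 fold change was -0.86 without arthritic pool 2 (limma adjusted p = 0.127) and -1.75 without arthritic pool 1 (limma adjusted p = 0.0401).

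Cfi, the gene of factor I, which cuts C3b and C4b with the help of cofactors such as Cd46, moved the other way. It read 7.05, 6.88, 8.42 and 8.22. Both arthritic pools were higher. The rise was 2.56-fold (log2 fold change 1.36 ± 0.17 SE, 95% interval 0.97 to 1.74, limma adjusted p = 0.00162). The nonarthritic mean was under the dim reference of 7.08, so the size of the rise is uncertain. C1qbp, a mitochondrial protein that also binds C1q, read 9.75, 9.59, 10.10 and 9.97 and did not pass (log2 fold change 0.37, 95% interval -0.01 to 0.74, limma adjusted p = 0.179).

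The stretches before the starts of Cd55 and Cd59a are shown as the promoters of membrane regulators that fell together. They come from RefSeq, build GRCm38.p6, are written 5′ to 3′ in the direction of the gene, and carry motif matches in capitals. Cd55 is at chr1:130462745-130462994 on the minus strand, and Cd59a is at chr2:104095551-104095800 on the plus strand.
Cd55: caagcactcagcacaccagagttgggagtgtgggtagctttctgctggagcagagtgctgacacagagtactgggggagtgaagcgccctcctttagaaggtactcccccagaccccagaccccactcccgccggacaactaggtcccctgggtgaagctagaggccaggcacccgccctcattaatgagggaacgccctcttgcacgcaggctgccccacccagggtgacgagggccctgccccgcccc
Cd59a: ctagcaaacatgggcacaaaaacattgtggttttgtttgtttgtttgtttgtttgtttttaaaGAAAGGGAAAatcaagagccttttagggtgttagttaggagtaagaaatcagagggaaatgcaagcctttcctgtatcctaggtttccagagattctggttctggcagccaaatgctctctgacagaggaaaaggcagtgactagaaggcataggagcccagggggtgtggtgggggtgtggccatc

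The Cd59a stretch holds 1 match to the interferon-stimulated element, 187 to 178 bases before the start. Those of Cd55 and Cd46 hold none of the 4 motifs, which says only that these letters are not in this window.

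In the alternative pathway, the 2 measured members both rose (100%, beside 8.72% over all genes), and C3 and Cfd were not analysed. Cfp encodes properdin, the protein that stabilises the alternative C3 convertase and that neutrophils and monocytes are known to store or make. Cfp read 10.19, 10.10, 11.22 and 11.23. The pools of each group were within 0.09 of each other and the arthritic pools were higher. The rise was 2.11-fold (log2 fold change 1.08 ± 0.15 SE, 95% interval 0.72 to 1.44, limma adjusted p = 0.00318). The neutrophil and general macrophage sums given above were higher in the same pools, and their part in the Cfp result was not tested.

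Cfb encodes factor B, the protease of that convertase. It read 10.50, 10.16, 10.96 and 11.42. Spread was wider than for Cfp, with the nonarthritic pools 0.34 and the arthritic pools 0.46 apart, but the groups did not overlap. Cfb rose 1.82-fold (log2 fold change 0.86 ± 0.21 SE, 95% interval 0.38 to 1.34, limma adjusted p = 0.0291). C2, the factor B counterpart of the classical and lectin pathways, is the next coding gene on chromosome 17. Its values of 9.60, 9.77, 9.78 and 9.67 overlapped between the groups (log2 fold change 0.04, 95% interval -0.33 to 0.41, limma adjusted p = 0.909). The difference between these neighbours was not tested.

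Classical pathway genes split. Of 6 measured, C1qa rose and C4b fell (16.7% each way, beside 8.72% higher and 6.62% lower over all genes). The median log2 fold change was -0.01. C1q is a bundle of A, B and C chains made in equal amounts, mainly by macrophages, and its 3 genes lie side by side on chromosome 4.

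C1qa read 10.65, 10.56, 11.13 and 11.26 and was higher in both arthritic pools. It rose 1.51-fold (log2 fold change 0.59 ± 0.16 SE, 95% interval 0.23 to 0.95, limma adjusted p = 0.0412). With quantile normalization applied again, the adjusted p was 0.0513. C1qb read 12.55, 12.54, 12.60 and 12.39, and its groups overlapped (log2 fold change -0.05, 95% interval -0.42 to 0.32, limma adjusted p = 0.885). C1qc read 11.11, 11.05, 10.86 and 10.91, slightly lower in both arthritic pools (log2 fold change -0.20, 95% interval -0.55 to 0.16, limma adjusted p = 0.466). The 3 chain genes thus did not give 1 common value, and the difference between them was not tested. Among macrophage markers, Mpeg1 and Fcgr1 rose by 1.91 and 1.60 on the log2 scale, while Csf1r (-0.11) and Mertk (-0.02) did not pass.

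C4b encodes C4, which classical and lectin proteases cleave. It read 12.18, 12.22, 11.49 and 11.32, with both arthritic pools lower. C4b fell 1.74-fold (log2 fold change -0.80 ± 0.16 SE, limma adjusted p = 0.0136). The gene has a near-identical copy, C4a, which can share probes with it, so the value is uncertain for that reason. C4a itself was dim (6.17, 6.17, 5.67 and 6.39). C1ra, the protease activated first in the C1 complex, read 8.58, 8.64, 8.63 and 8.66 (log2 fold change 0.04, 95% interval -0.32 to 0.39), and it has a close copy in C1rb.

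In the lectin pathway, 1 of 6 measured members rose and 1 fell, with a median log2 fold change of -0.24. These shares are 16.7% each way, beside 8.72% higher and 6.62% lower over all genes. Masp1, the protease that starts the pathway once a collectin or ficolin has bound, read 8.97, 8.89, 10.46 and 10.14. Both arthritic pools were more than 1 log2 unit above both nonarthritic pools. Masp1 rose 2.59-fold (log2 fold change 1.37 ± 0.17 SE, 95% interval 0.97 to 1.77, limma adjusted p = 0.00187). It had the highest log2 fold change of the 31 members.

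Of the other 5 measured members of the lectin list, 1 fell and 4 did not pass, and their difference from Masp1 was not tested. Fcna, ficolin A, which tissue macrophages are known to make, read 8.68, 8.75, 7.92 and 8.03. It fell 1.67-fold (log2 fold change -0.74 ± 0.16 SE, limma adjusted p = 0.0167). Of 7 resident macrophage markers 5 fell, among them Lyve1 (-2.59) and Vsig4 (-2.07, log2 fold changes). The other 2, Mrc1 (-0.265) and Cx3cr1 (-0.345), did not pass, and 4 of 8 general macrophage markers rose. The part of these markers in the Fcna result was not tested. The collectin genes Colec11 (7.77, 7.75, 7.32 and 7.40) and Colec12 (12.34, 12.20, 11.98 and 11.79) were lower in both arthritic pools but did not pass, with limma adjusted p-values of 0.127 and 0.164. Mbl2, a mannose-binding lectin of liver origin (6.51, 6.82, 6.66 and 6.49), and Fcnb, the ficolin of myeloid precursors (5.43, 5.53, 5.70 and 5.63), were dim in both groups.

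The anaphylatoxin receptors sense C3a and C5a, the small fragments released during activation. Of the 3 genes, C5ar2 rose and the others did not pass (33.3% higher and 0% lower, beside 8.72% and 6.62% over all genes). In all 3 the arthritic pools lay above the nonarthritic pools (median log2 fold change 0.48), as in 6703 of all 22180 genes. In 56.4% of all genes the pools of the groups did not overlap, in either direction. C5ar2, the second C5a receptor, which does not couple to G proteins, read 8.82, 8.80, 9.88 and 9.67. It rose 1.95-fold (log2 fold change 0.97 ± 0.16 SE, 95% interval 0.59 to 1.34, limma adjusted p = 0.00635).

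C5ar1, the G protein-coupled C5a receptor of neutrophils and macrophages, is the neighbouring gene on chromosome 7. It read 9.24, 8.97, 9.55 and 9.62 (log2 fold change 0.48 ± 0.17 SE, 95% interval 0.09 to 0.87, limma adjusted p = 0.0982). C3ar1, the C3a receptor, read 11.19, 11.06, 11.39 and 11.67 (log2 fold change 0.41 ± 0.17 SE, 95% interval 0.01 to 0.80, limma adjusted p = 0.162). Both genes missed the threshold, which does not show that they were equal between the groups. Neutrophil markers were far apart in the same pools: the chemokine receptor gene Cxcr2 read 8.43, 8.16, 11.87 and 11.98. Their part in the receptor results was not tested.

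C5ar2 has 2 starts in RefSeq, and the stretch before the one at chr7:16244155-16244404 (minus strand, build GRCm38.p6, written 5′ to 3′ in the direction of the gene) is shown as the promoter of a member that rose; the stretch before the other start holds none of the 4 motifs. The capitals mark 2 C/EBP matches, 210 to 203 and 166 to 159 bases before the start.
C5ar2: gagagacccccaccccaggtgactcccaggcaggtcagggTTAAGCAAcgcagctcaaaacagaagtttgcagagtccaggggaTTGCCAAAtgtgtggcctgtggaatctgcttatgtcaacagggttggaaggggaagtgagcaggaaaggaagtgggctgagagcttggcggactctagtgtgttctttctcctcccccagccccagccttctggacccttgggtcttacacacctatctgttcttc

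Beyond the members, a list of 35 other complement pathway genes had 29 measured, of which 4 rose and 3 fell (13.8% and 10.3%, beside the same 8.72% and 6.62% over all genes). Their median log2 fold change was 0.01, and 11 of the 29 were dim in both groups.

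Among 10 initiation genes only Ptx3 passed (10% higher and 0% lower, beside 8.72% and 6.62% over all genes). Of these 10, 6 were dim in both groups. It encodes a long pentraxin that binds C1q and factor H and that stromal and myeloid cells make in inflammation. Ptx3 read 7.52, 7.63, 10.06 and 10.42 and rose 6.34-fold (log2 fold change 2.67 ± 0.18 SE, limma adjusted p = 0.000163). It also passed in each of the 4 fits that left out an array, with log2 fold changes from 2.49 to 2.85. The short pentraxin genes Crp and Apcs were dim, with log2 fold changes of 0.08 and 0.05.

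Among 12 other regulators 0 rose and 2 fell (0% and 16.7%, beside 8.72% and 6.62% over all genes), and 4 were dim in both groups. Thbd, thrombomodulin, an endothelial receptor that also limits complement, read 11.25, 11.22, 10.07 and 9.84 and fell 2.43-fold (log2 fold change -1.28 ± 0.16 SE, limma adjusted p = 0.00193). Of 5 endothelial markers 1 rose and 0 fell (median log2 fold change 0.03), and their part in the Thbd result was not tested. Csmd1, a large membrane protein with complement control repeats, fell by 0.61 on the log2 scale (7.85, 7.92, 7.15 and 7.41, limma adjusted p = 0.0457), and its adjusted p was 0.0852 with arrays centred on their medians. Serping1, the C1 inhibitor gene, read 13.36, 13.38, 13.12 and 13.09 and did not pass (log2 fold change -0.27, 95% interval -0.62 to 0.09).

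Among 7 other receptors 3 rose and 1 fell (42.9% and 14.3%, beside 8.72% and 6.62% over all genes), and 1 was dim in both groups. Itgam and Itgb2, which together form complement receptor 3 of neutrophils and macrophages, rose by 0.62 and 0.73 on the log2 scale (limma adjusted p = 0.0418 and 0.0254). Itgam read 10.34, 10.25, 10.79 and 11.04, and its adjusted p was 0.0568 with quantile normalization applied again. Cd93, once described as a C1q receptor of endothelial and myeloid cells, read 10.43, 10.42, 11.30 and 11.07 and rose by 0.76 (limma adjusted p = 0.0178). Vsig4, the C3b receptor of resident macrophages, read 12.67, 12.75, 10.88 and 10.41 and fell 4.18-fold (log2 fold change -2.07 ± 0.19 SE, limma adjusted p = 0.000521). Vsig4 is also in the resident macrophage list, whose other falling markers were Lyve1, Timd4, Folr2 and Cd163. Cd93 and Thbd are neighbours on chromosome 2, and their log2 fold changes were 0.76 and -1.28. Thbd and Vsig4 also passed without nonarthritic pool 1 and without arthritic pool 1 but in neither other fit with an array left out, and Csmd1, Itgam, Itgb2 and Cd93 passed in none of the 4.

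**Figure D4:**
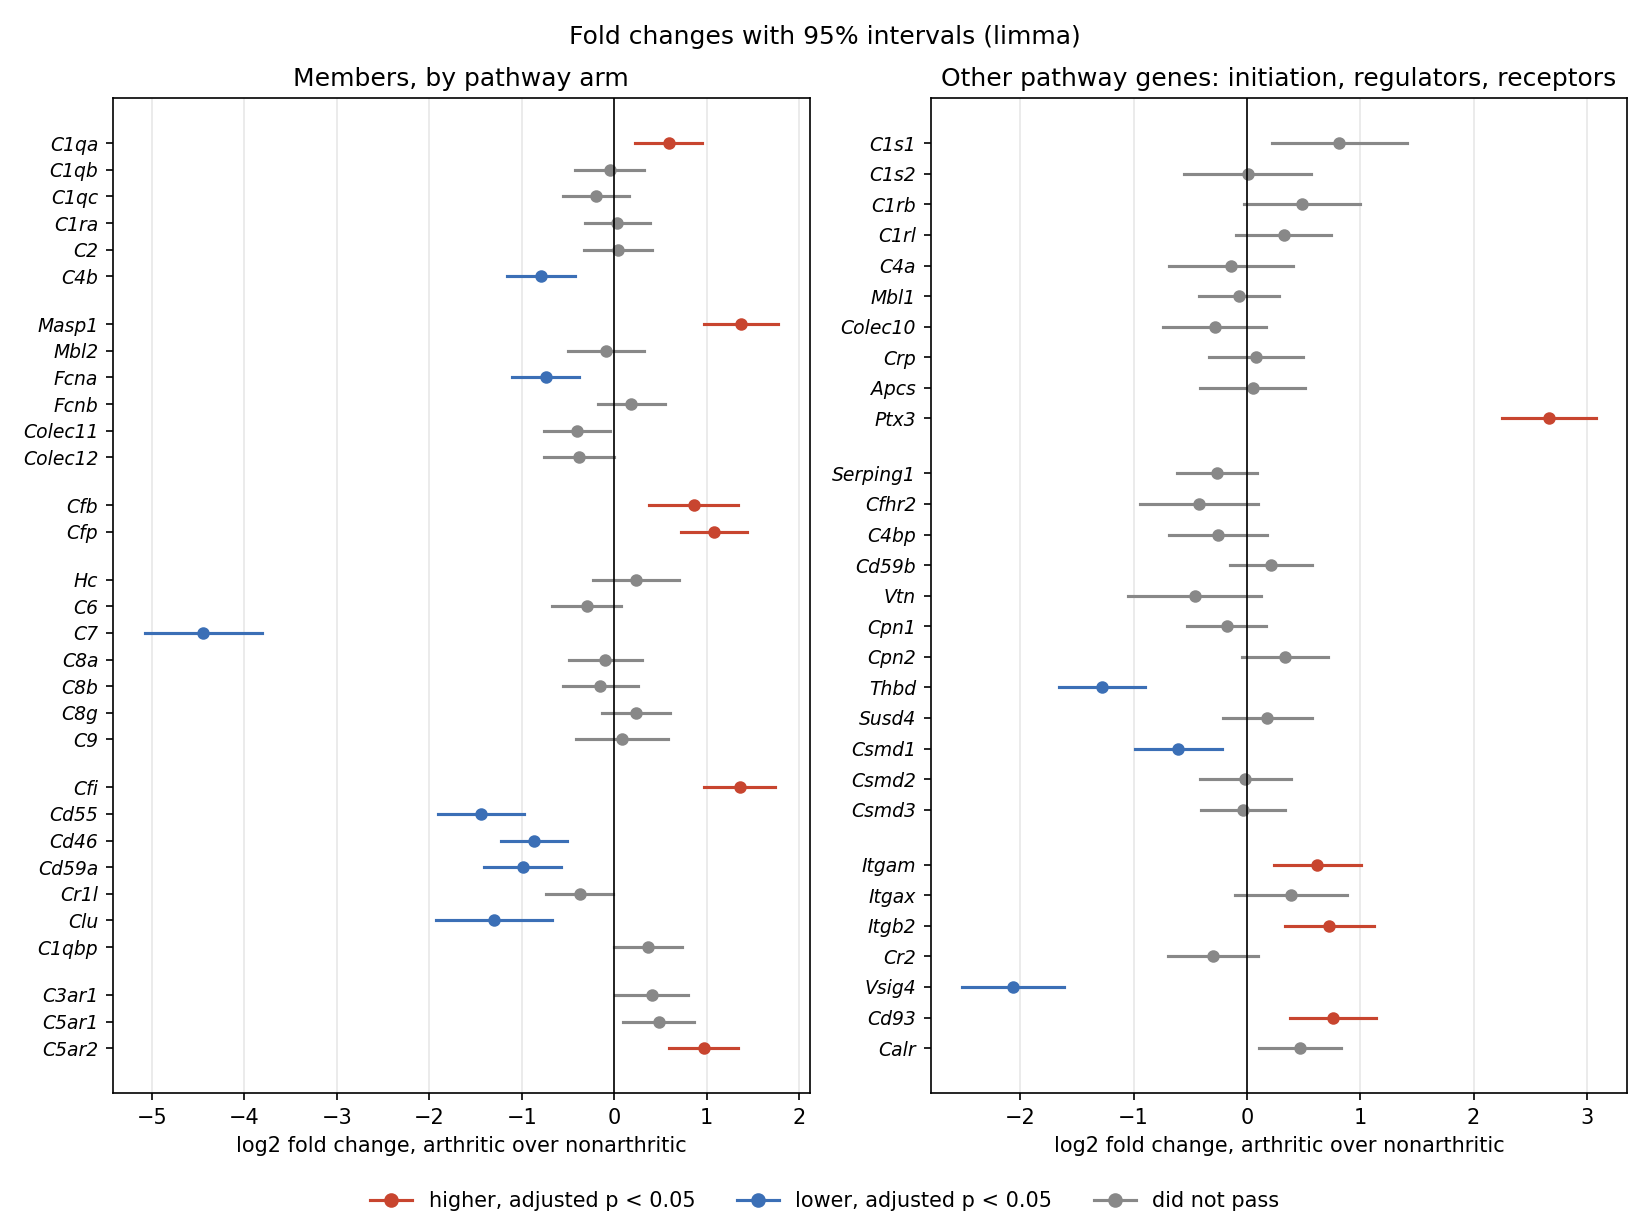
Log2 fold change, arthritic over nonarthritic (x axis), with the 95% interval from limma for each member (left, grouped by pathway arm) and each other pathway gene (right); colours mark genes that rose, fell or did not pass. C7 at -4.44 and Ptx3 at 2.67 lie farthest from 0 in their panels, and the membrane regulators Cd55, Cd46 and Cd59a lie below 0.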

How the data were processed

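Total RNA (500 ng) from each of 4 synovium pools was measured on an Affymetrix MoGene 2.0 ST array. The deposited values were read as log2 signals with 2 decimals; the base was inferred from their range (2.89 to 14.27) and from the use of RMA, and every fold change depends on it. Per the submitters' processing notes, the authors made them with RMA (robust multi-array average), Affymetrix Power Tools and Affymetrix Expression Console. Which version of each was run is not given here. RMA normalizes between arrays and leaves no detection call, so dim signals were set against 1105 olfactory receptor genes on the same arrays.

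Of 41345 probe sets, 23521 had 1 symbol in the platform table, 1814 had several and 16010 had none. The probe set with the highest mean stood for each of 22180 genes. No filter was applied. Groups were compared with limma 3.58.1 in R 4.3.3 (lmFit and eBayes, 2-sided, 2 residual and 5.98 prior degrees of freedom), with Benjamini-Hochberg adjustment over all genes and a threshold of 0.05. The script was tested on simulated data. Alternatives were array centring, repeated quantile normalization, a dim-gene filter at 5.73, averaged probe sets, other variance priors, a replicate block and leaving out each array. Values in every pool were given for members that passed, for the C1q chains and for the C3a and C5a receptors. Other pathway genes were named where they passed; Cd59b, C4a, Serping1, Crp, Apcs and the C1r and C1s genes did not pass and were named after their values were seen. The members, lists and motifs were chosen with earlier results of these data known. Protein sequences were not used here.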

Additional observations from a re-analysis of the deposited data

How the results depend on the processing

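Under array centring, repeated quantile normalization, the dim-gene filter, averaged probe sets and both other variance priors, the counts of members that rose (5 or 6) and fell (7) stayed within 1.5 times those reported, and no called member changed sign. Pool numbers 1 and 2 stand in both groups without a stated meaning, and the pool differences of the groups correlated at 0.176 over genes. With the replicate block, 4 members rose and 6 fell: C1qa, Cfb and Cd59a lost the call (adjusted p = 0.0698, 0.099 and 0.0508). The block gave 1216 genes higher over all genes. Of the other pathway genes, 2 rose and 2 fell with it: Itgam, Itgb2 and Csmd1 lost the call (adjusted p = 0.0772, 0.057 and 0.0646). With single arrays left out, 0 to 3 members rose and 1 to 2 fell, 47 to 637 genes rose and 105 to 584 fell, and 1 other pathway gene rose and 0 to 2 fell. These fits have fewer arrays and 1 residual degree of freedom fewer. Centring moved the median log2 fold change of all genes from 0.005 to 0.1. Members near 0 changed sign, none of them called: C1qb (0.045 with centring), C2 (-0.0188 with quantile normalization), Mbl2 (0.005 and 0.01) and C8a (0.0088). With arrays left out, C1qb ranged from -0.155 to 0.055, C2 from -0.045 to 0.125, Mbl2 from -0.245 to 0.065, C8a from -0.22 to 0.03 and C9 from -0.21 to 0.38. Signals under the olfactory receptor reference limit what can be said of Hc, C6, C8a, C8b, C9, Mbl2 and Fcnb.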

Other observations

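The following gene was chosen after its values were seen. C1s1, the second protease of the C1 complex, read 7.66 and 7.55 in the nonarthritic pools and 8.83 and 8.01 in the arthritic pools, and missed the threshold (log2 fold change 0.82 ± 0.26 SE, limma adjusted p = 0.0718). A further probe set of the gene gave a log2 fold change of 0.16. C1s1 lies among C1ra, C1rb and C1rl on chromosome 6. The log2 fold changes of C1rb and C1rl were 0.49 and 0.33, with limma adjusted p-values of 0.194 and 0.285, and their arthritic pools lay above their nonarthritic pools. C1ra and C1rb, and C1s1 and C1s2, are pairs of close copies that can share probes. None of these 4 genes of the cluster passed.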
